A study of Mus musculus with 12 samples.

Results

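T cell receptor contigs from the brain were searched for cells with a productive alpha chain (TRA) and no productive beta chain (TRB), called alpha-only cells here. A contig is a receptor transcript assembled from the reads of 1 cell barcode, and it is called productive when the calling software reads it as an open, full-length chain. Members were selected on these measured calls: at least 1 productive TRA contig and 0 productive TRB contigs, which gave 230 of 7056 cells with a productive chain. Cells with exactly 1 productive TRB and at least 1 productive TRA (5207, called paired cells) served for comparison, and 397 cells with a TRA and 2 or more TRB and 1222 cells with TRB alone made up the rest.

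The libraries held sorted CD45+ immune cells of C57BL/6 mice, either 5xFADTg mice, an Alzheimer's disease model whose transgenes encode mutant human amyloid precursor protein and presenilin and which forms plaques, or NonTg mice without the transgenes. There were 6 receptor libraries: 2 NonTg and 2 5xFADTg libraries from brain parenchyma, and 1 of each genotype from the meninges, the membranes around the brain. The labels give no age, sex, treatment or number of animals, and nothing says that libraries of a group came from separate mice, so p-values measure the spread between libraries, which may be technical. Per library, 15827899 to 26710709 reads and 49997 to 128700 unique molecular identifiers (UMIs, tags that mark single transcripts) stood behind the listed contigs. The 6 gene expression samples were not used here, so the cells are known by their receptor chains alone.

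An alpha-beta T cell assembles its beta chain from V, D and J segments before its alpha chain from V and J segments, and both chains are needed for a receptor at the surface. A rearrangement that is out of frame or otherwise not translatable can stay on the other allele and be transcribed, so that a cell can hold a nonproductive beta transcript beside a productive one. Invariant natural killer T (iNKT) cells share a near-fixed TRAV11-TRAJ18 alpha chain, and mucosal-associated invariant T (MAIT) cells a TRAV1-TRAJ33 alpha chain, so that both can be sought among cells in which only the alpha chain was read.

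The following CDR3 sequences (the hypervariable loop, from the deposited contigs, 5′ to 3′) are the ones the results turn on. Capitals mark bases that matched neither the V nor the J segment of GENCODE M21 (build GRCm38, named mm10), with the D segment of a beta chain among them. The TRBV10 chain is left in lower case because it was not aligned.
5xFADTg parenchyma 2, TRAV10D-TRAJ42, alpha: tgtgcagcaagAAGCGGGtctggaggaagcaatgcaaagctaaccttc
5xFADTg parenchyma 2, TRBV1-TRBJ2-5, productive beta of that clone: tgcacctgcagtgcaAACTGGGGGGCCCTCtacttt
5xFADTg parenchyma 2, TRBV31-TRBJ1-3, nonproductive beta of that clone: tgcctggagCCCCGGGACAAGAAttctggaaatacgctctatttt
5xFADTg parenchyma 1, TRAV7D-2-TRAJ26, alpha: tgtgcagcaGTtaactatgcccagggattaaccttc
5xFADTg parenchyma 1, TRBV1-TRBJ1-4, productive beta of that clone: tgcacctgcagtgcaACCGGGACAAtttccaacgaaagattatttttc
NonTg parenchyma 1, TRAV2-TRAJ39, alpha: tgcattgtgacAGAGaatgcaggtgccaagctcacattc
NonTg parenchyma 1, TRBV10-TRBJ2-7, productive beta of that clone: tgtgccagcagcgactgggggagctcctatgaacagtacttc
NonTg parenchyma 1, TRAV14-2-TRAJ49, first alpha of a clone with a pair of alphas: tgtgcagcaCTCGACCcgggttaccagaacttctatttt
NonTg parenchyma 1, TRAV16N-TRAJ39, the other alpha of that clone: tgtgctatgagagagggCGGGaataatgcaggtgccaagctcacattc
NonTg parenchyma 1, TRBV17-TRBJ1-1, productive beta of that clone: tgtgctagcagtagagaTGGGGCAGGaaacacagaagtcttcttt
TRAV11-TRAJ18, iNKT-like alpha in 3 alpha-only cells: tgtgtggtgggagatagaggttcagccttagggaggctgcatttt
TRAV11-TRAJ18, iNKT-like alpha in 3 other alpha-only cells: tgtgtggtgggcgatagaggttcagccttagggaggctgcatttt
TRAV11-TRAJ18, iNKT-like alpha in 1 alpha-only cell: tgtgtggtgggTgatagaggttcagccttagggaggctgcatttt
TRAV1-TRAJ33, most frequent such alpha, in 16 paired cells: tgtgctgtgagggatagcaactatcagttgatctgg

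Alpha-only cells made up 3.26% of cells with a productive chain (95% exact binomial interval 2.86 to 3.70), and 3.94% of cells with a productive TRA. In NonTg parenchyma they were 57 of 1437 cells (3.97%) in replicate 1 and 31 of 1001 (3.10%) in replicate 2. In 5xFADTg parenchyma they were 52 of 1601 (3.25%) and 64 of 2122 (3.02%). The NonTg meninges held 18 of 425 (4.24%) and the 5xFADTg meninges 8 of 470 (1.70%), the highest and the lowest share. The binomial intervals of the 6 libraries, which cover counting error only, overlapped with one another. The genotypes overlapped in parenchyma, with 3.13% ± 0.164 (SD, n = 2) in 5xFADTg against 3.53% ± 0.615 (SD, n = 2) in NonTg, which puts 5xFADTg at -0.400 percentage points from NonTg (two-sided exact permutation test, p = 0.667, adjusted over 4 measures 0.889). With 2 libraries against 2, that test cannot give a p under 0.333. Meninges and parenchyma overlapped too, with 2.97% ± 1.79 (SD, n = 2) against 3.33% ± 0.434 (SD, n = 4) (exact permutation test, p = 0.667, adjusted 0.667, smallest possible p 0.133), and without the 5xFADTg library the meninges were 0.903 percentage points above the parenchyma.

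**Figure D1:**
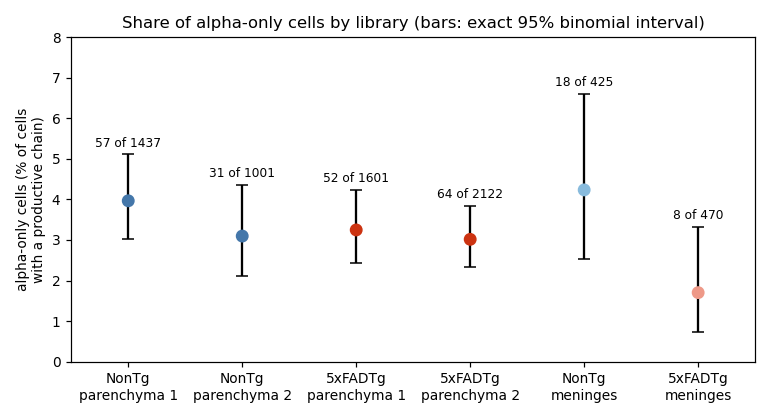
Share of alpha-only cells among cells with a productive chain (%, vertical axis) in each of the 6 libraries (horizontal axis), with the exact 95% binomial interval as a bar and the counts above it. The points run from 1.70% in 5xFADTg meninges to 4.24% in NonTg meninges, and all intervals overlap.

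The alpha chain of most of these cells rested on more than 2 UMIs. Counting the strongest productive TRA of a cell, alpha-only cells had 2 to 1000 UMIs, and none rested on 1 UMI. At most 2 UMIs were found in 5 of 230 alpha-only cells (2.17%), against 7.43% of paired cells, and more than 100 UMIs in 34 (14.8%), against 17.5% of paired cells. How a barcode was called a cell is not given, and a paired cell also has a productive TRB to be called by. The shares at the low end are therefore a description and were not tested. The median was 40 UMIs in NonTg parenchyma 1, where paired cells had 49. It was 33 against 60 in NonTg parenchyma 2, 37 against 50 in 5xFADTg parenchyma 1 and 30 against 34 in 5xFADTg parenchyma 2. It was 58.5 against 75 in NonTg meninges and 76.5 against 51.5 in 5xFADTg meninges, where only 8 alpha-only cells were counted. Alpha-only cells thus had the lower median in 5 of 6 libraries, by -0.26 ± 0.47 on the log2 scale (mean and SD of the ratio, n = 6), which did not pass the test (exact sign-flip permutation test, p = 0.25, adjusted over 7 measures 0.492). The smallest p this test can give is 0.0312, which stands at an adjusted 0.219 when no other measure reaches it.

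**Figure D2:**
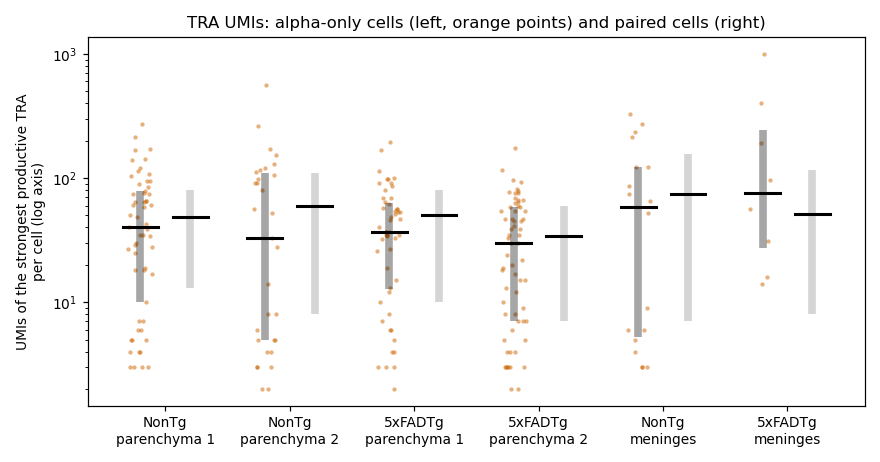
UMIs of the strongest productive TRA per cell (vertical log axis) for alpha-only cells (left of each pair, a point per cell) and paired cells (right) in 6 libraries (horizontal axis). Black lines are medians and grey bars run from the first to the third quartile. The alpha-only median lies below the paired median in all libraries except 5xFADTg meninges, where it is 76.5 against 51.5.

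Medians of alpha-only cells were higher in both meninges libraries (58.5 and 76.5 UMIs) than in any parenchyma library (30 to 40 UMIs). The difference of 32.5 UMIs (67.5 ± 12.7, SD, n = 2, against 35 ± 4.40, SD, n = 4) had the smallest p that the exact permutation test can give for these groups, 0.133 (adjusted 0.533). Paired cells of the meninges had medians of 75 and 51.5 UMIs, which overlapped with the 34 to 60 UMIs of parenchyma. Between genotypes in parenchyma the alpha-only medians averaged 33.5 ± 4.95 (SD, n = 2) UMIs in 5xFADTg and 36.5 ± 4.95 (SD, n = 2) in NonTg (exact permutation test, p = 0.667, adjusted 0.889).

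A beta transcript without a productive call was listed in most alpha-only cells. At least 1 nonproductive TRB contig was present in 155 of 230 alpha-only cells (67.4%, 95% exact interval 60.9 to 73.4) and in 2157 of 5207 paired cells (41.4%, 40.1 to 42.8). In NonTg parenchyma the shares were 59.6% and 48.4% of alpha-only cells, against 35.7% and 40.1% of paired cells. In 5xFADTg parenchyma they were 73.1% and 75%, against 42.6% and 45.2%. In the meninges they were 77.8% in NonTg and 75% in 5xFADTg, against 40.7% and 42.7%. The alpha-only share was the higher one in each of the 6 libraries; since the rule for the cells reads the productive call of the same TRB contigs, these values are a description and were not tested. Just outside the rule stood 115 paired cells (2.21%) whose only productive TRB had 1 UMI. Just inside it stood 93 alpha-only cells (40.4%) with a full-length TRB contig that was not called productive, with a median of 3 UMIs per such contig, where the productive TRB of paired cells had a median of 8.

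The alpha-only cells held 209 nonproductive TRB contigs. A CDR3 was listed for 83 of them (39.7%) and no V segment for 101 (48.3%); the values of the 2681 such contigs in paired cells were 372 (13.9%) and 73.3%, but the rule sends a cell to one class or the other by the call on these contigs, so the pair of values is a description and was not tested. All 83 CDR3 had a length that is a multiple of 3 and none held a stop codon, which also held for the 372 of the paired cells. A CDR3 is listed together with its translation, so these counts do not show that the contig as a whole is in frame. The median contig of an alpha-only cell had 4 UMIs, with a range of 1 to 51.

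In 39 alpha-only cells the nonproductive contig carried the same beta CDR3, base for base, as the productive TRB of paired cells with the same alpha CDR3 in that library. They were 17.0% of all alpha-only cells (12.3 to 22.4) and 28.5% (21.1 to 36.8) of the 137 whose alpha was found in a paired cell. By library they numbered 8 and 2 in NonTg parenchyma, 12 and 15 in 5xFADTg parenchyma, and 1 in each meninges library. A further 7 alpha-only cells held a nonproductive CDR3 seen in paired cells of the clone, 29 held another CDR3, 21 had a V segment and no CDR3, 59 had contigs with no V segment, and 75 (32.6%) had no TRB contig.

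**Figure D3:**
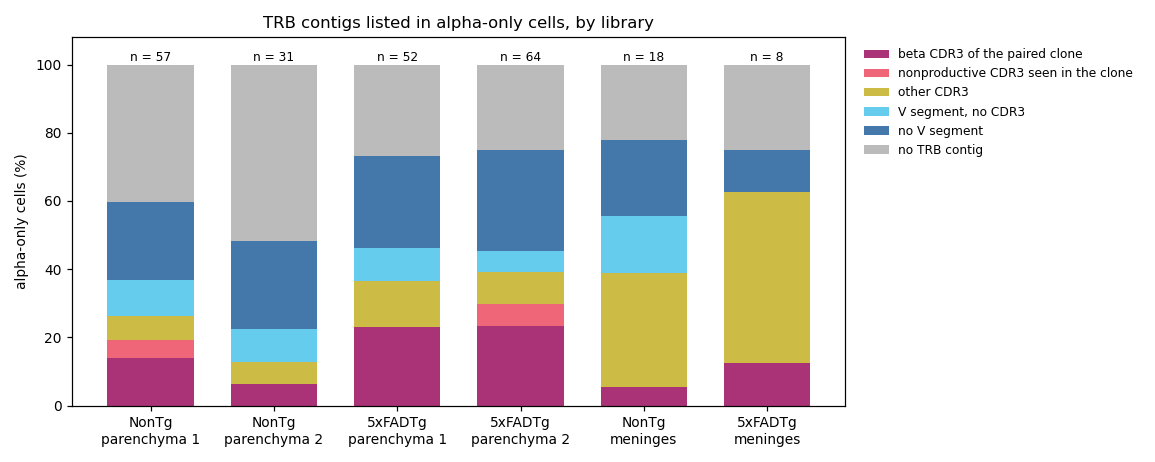
Alpha-only cells of each library (horizontal axis) by the TRB contig listed in them (%, vertical axis, stacked to 100), with the number of cells above each bar. The lowest segment, the beta CDR3 of the paired clone on a nonproductive contig, holds 12 and 15 cells in the 5xFADTg parenchyma libraries and 1 cell in each meninges library.

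These 39 contigs were all full length and high confidence, with a median of 3 UMIs (1 to 18), and most differed in length from the productive contigs of the same CDR3. Of the 39, 33 lay outside the range of lengths of those productive contigs, of which at least 2 were available in 34 of the 39 cases. In the remaining cases the range was the length of 1 contig, so any other length counted as outside. None of the 39 lay within 10 bases of the median length of the productive contigs with that CDR3 in the library, and their distance ran from 20 to 379 bases. Of 1792 productive contigs in groups of at least 5 with the same CDR3, 73.2% lay within 10 bases of their group's median. The direction differed by V segment. TRBV1 (chr6:40891229-40891885, mm10, plus strand) held 12 of the 39 contigs, of which 10 were longer than the median of the productive contigs and 8 lay outside their range, with a median length of 638 bases where the productive medians were 562 to 574. TRBV10 (chr6:41091940-41092228, a V pseudogene in GENCODE M21) held 3, all longer, at 617 to 666 bases against 525.5 to 544. TRBV19 (chr6:41178375-41179048) held 6, all shorter, at 372 to 519 bases against 692 to 721, and TRBV13-2 held 4, all shorter, at 355 to 385 bases against 518 to 570. For the TRBV13-2 contigs of 5xFADTg parenchyma, the main productive beta of the clone was labelled TRBV12-2 and TRBV13-2 jointly. A clone can count more than once here. The 12 TRBV1 contigs fell into groups of 4, 3, 2, 2 and 1 with the same CDR3, and the 3 TRBV10 contigs into groups of 2 and 1. The TRBV13-2 contigs fell into groups of 2, 1 and 1, and the TRBV19 contigs each had their own CDR3. Over all V segments 15 of the contigs were longer and 24 shorter. The tables hold no sequence outside the CDR3, and why the lengths differ was not tested.

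**Figure D4:**
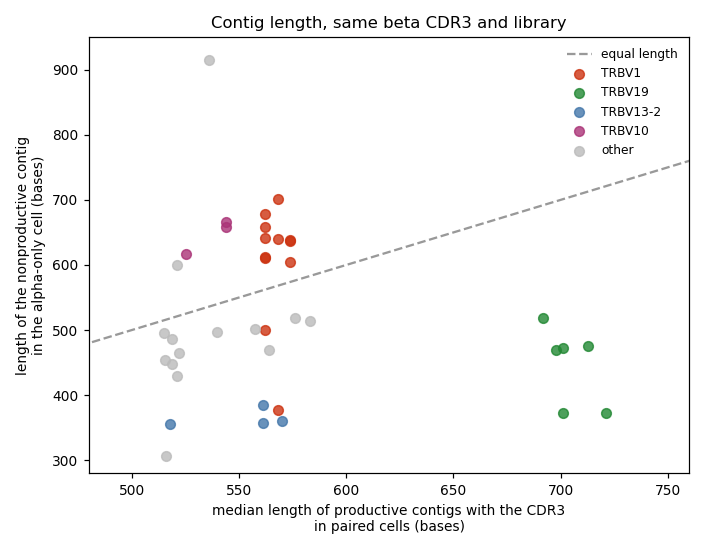
Length of the nonproductive TRB contig in an alpha-only cell (bases, vertical axis) against the median length of productive contigs with the same CDR3 in paired cells of the library (bases, horizontal axis), a point per contig, coloured by V segment. TRBV1 and TRBV10 lie mostly above the dashed line of equal length, and the 6 TRBV19 and 4 TRBV13-2 contigs all lie below it.

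A match of the alpha CDR3 to paired cells of the same library was found for 137 of 230 alpha-only cells (59.6%, 52.9 to 66). Of paired cells, 2820 (54.2%) shared their alpha with another paired cell. The alpha-only share was 68.4% and 45.2% in NonTg parenchyma, 65.4% and 62.5% in 5xFADTg parenchyma, 33.3% in NonTg meninges and 50% in 5xFADTg meninges. It was above that of paired cells in 5 libraries and below it in NonTg parenchyma 2, by 5.63 ± 11.3 percentage points on average (SD, n = 6; exact sign-flip permutation test, p = 0.281, adjusted 0.492). Leaving out 1 library at a time gave 2.27 to 8.85 points. Counting distinct chains in place of cells gave 30.4 points (exact sign-flip permutation test, p = 0.0312, adjusted 0.146), a count in which a paired chain seen in 1 cell cannot match while an alpha-only chain seen in 1 cell can. The share did not separate the genotypes in parenchyma (63.9% ± 2.04, SD, n = 2, in 5xFADTg and 56.8% ± 16.4, SD, n = 2, in NonTg, exact permutation test, p = 1, adjusted 1). It was 41.7% ± 11.8 (SD, n = 2) in meninges and 60.4% ± 10.4 (SD, n = 4) in parenchyma (exact permutation test, p = 0.267, adjusted 0.533), with 1 parenchyma library inside the meninges range. None of the 230 cells shared the deposited clonotype identifier of a paired cell, so the match rests on the alpha CDR3 alone.

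The alpha of the other cells was mostly not seen again. In 85 cells (37.0%) it was in no paired cell of any library and in no other alpha-only cell or cell with 2 or more TRB of its own library, in 4 it was in a cell of the library with 2 or more TRB, and in 4 in a paired cell of another library of the genotype. Over all alpha-only cells, those matched in their library included, the alpha of 65 was in a paired cell of the other tissue of that genotype. Of these 65, 61 were also matched in their own library. For 12 alpha-only cells the alpha was in a paired cell of the other genotype, 7 of them iNKT-like. Matched cells had the higher median of TRA UMIs in 3 libraries (86 against 8 in NonTg parenchyma 2, 140 against 30.5 in NonTg meninges and 251.5 against 43.5 in 5xFADTg meninges). They had the lower one in the other 3 (39 against 44.5 in NonTg parenchyma 1, 34.5 against 55 in 5xFADTg parenchyma 1 and 23 against 37 in 5xFADTg parenchyma 2). A barcode is not unique to a library, and 21 of 7034 barcodes occurred in more than 1; only 1 alpha-only cell had such a barcode, and 0 shared its alpha with the cell of that barcode elsewhere.

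Alpha-only cells were spread over clones of all sizes. An alpha present in 20 or more other paired cells of the library was found in 50 alpha-only cells (21.7%) and 1105 paired cells (21.2%), and 1 with 5 to 19 in 35 (15.2%) and 722 (13.9%). Among 25 alpha sequences with at least 20 paired cells and 1 dominant TRB, which held 1012 distinct paired cells, 48 distinct alpha-only cells were counted, and the share per alpha without a beta ran from 0% to 13.3% with a median of 4.55%. Over all cells, 4.23% of alpha-only plus paired cells lacked the beta. A clone with a pair of alphas is listed once for each of them among the 25. No alpha-only cell was seen for 7 of the 25, among them a TRBV17 clone of 64 and a TRBV5 clone of 69 paired cells, for which a count of 0 allows shares of up to 4.69% and 4.35%.

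**Figure D5:**
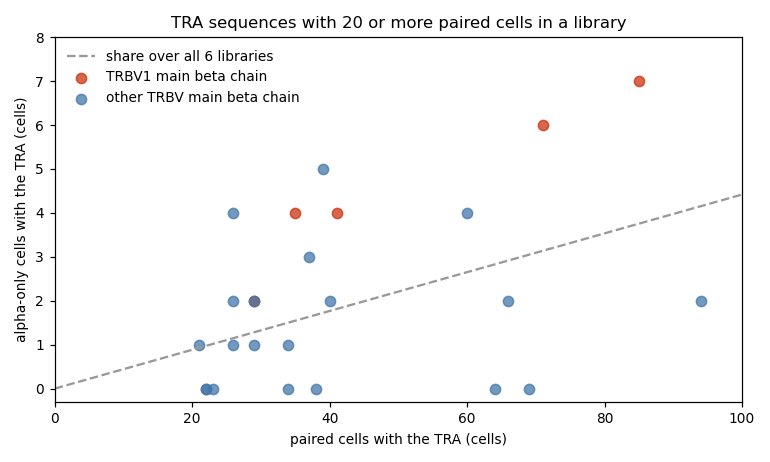
Alpha-only cells (vertical axis) against paired cells (horizontal axis) for the 25 alpha sequences with at least 20 paired cells in a library; points with equal counts overlap. The dashed line is the share of 4.23% over all cells. The clone at the upper right, with 7 alpha-only and 85 paired cells, has a TRBV1 beta chain, as has the next with 6 and 71.

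The clone with most alpha-only cells, TRAV10D-TRAJ42 with TRBV1 in 5xFADTg parenchyma 2, had 7 of them beside 85 paired cells (7.61%, 3.11 to 15.1). All 7 carried the nonproductive TRBV31-TRBJ1-3 rearrangement printed above, which was also found in 70 of the 85 paired cells. In 4 of the 7 the productive TRBV1 CDR3 of the clone stood on a nonproductive contig as well. TRA UMIs of the clone's alpha ran from 3 to 82 in the alpha-only cells, with a median of 22, against 25 in the paired cells. The match of these cells to the clone used the alpha CDR3 and neither of the beta sequences.

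TRAV7D-2-TRAJ26 with TRBV1 in 5xFADTg parenchyma 1 had 6 alpha-only and 71 paired cells (7.79%), and 3 of the 6 carried the clone's beta CDR3. Its alpha had a median of 33.5 UMIs in the alpha-only cells and 59 in the paired cells. TRAV2-TRAJ39 with TRBV10 in NonTg parenchyma 1 had 5 and 39 (11.4%), with the beta CDR3 in 2, and medians of 4 and 49 UMIs. Of those with 4 alpha-only cells, TRAV12D-3-TRAJ21 with a chain labelled TRBV12-2 and TRBV13-2 jointly had 60 paired cells and medians of 27 UMIs in alpha-only and 5 in paired cells, and TRAV6-6-TRAJ34 with TRBV2 had 26 paired cells and the highest share of the 25, 13.3%, with a median of 3.5 UMIs for its productive TRB. A TRBV1-TRBJ1-5 clone of 5xFADTg parenchyma 2 carried both TRAV10-TRAJ31 (4 alpha-only, 41 paired, medians of 3.5 and 9 UMIs) and TRAV7-5-TRAJ32 (4 and 35). TRAV12-1-TRAJ31 with TRBV2 in NonTg parenchyma 1 had 4 alpha-only and 14 paired cells, and a nonproductive TRBV19-TRBJ2-3 CDR3 stood in 3 of the 4 and in 4 of the 14. TRAV12-2-TRAJ5 (37 paired) and TRAV3-3-TRAJ22 (11 paired) had 3 each.

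The clone with a pair of alphas, TRAV14-2-TRAJ49 and TRAV16N-TRAJ39 with TRBV17, was seen without its beta in both libraries where it occurred. In NonTg parenchyma 1 it had 4 alpha-only cells, 3 of them with both alphas, beside 8 paired cells, 2 of them with both. The weaker alpha had 4, 7 and 1 UMIs in those 3 alpha-only cells. In NonTg meninges the clone had 2 alpha-only cells, each with both alphas, beside 3 paired cells, all 3 with both. The weaker alpha had 4 UMIs in each of those 2 alpha-only cells. A nonproductive TRBV10-TRBJ2-1 contig was listed in 3 of the 4 alpha-only cells of parenchyma, and in 1 of the 8 paired cells. In meninges it was in 0 of the 2 alpha-only and 2 of the 3 paired cells.

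By the V segment of the beta chain that the alpha is paired with elsewhere in the library, the share of cells without a beta was unequal. Alphas with 1 TRB in at least 80% of their paired cells were used, each cell counted once per V segment. The joint TRBV12-2 and TRBV13-2 label counted as TRBV13-2. Of the alphas named above, TRAV12-1-TRAJ31 with TRBV2 (78.6%) and TRAV3-3-TRAJ22 with TRBV19 (63.6%) fell under that limit and are left out. The share was 5.66% for TRBV2 (9 alpha-only cells), 5.19% for TRBV12-1 (14), 4.72% for TRBV1 (21), 3.87% for TRBV19 (17) and 3.31% for TRBV17 (6, all of the clone with a pair of alphas above). It was 1.71% for TRBV13-2 (11), 0.971% for TRBV3 (4) and 0.781% for TRBV5 (2). Alphas paired with TRBV13-1 (230 paired cells) and TRBV16 (237) had no alpha-only cell, which allows shares of up to 1.30% and 1.27%. Each value rests on few alpha-only cells. The TRBV1 cells carried 7 alphas between them, where the TRBV19 cells carried 15 and the TRBV12-1 cells 12. For TRBV1, 13 alpha-only cells were in 5xFADTg parenchyma 2, 6 in 5xFADTg parenchyma 1 and 2 in NonTg parenchyma 1, with 0 in the other libraries. These shares describe how often the rule applied and were not tested. Alpha-only cells whose alpha is in no paired cell of the library cannot enter them. The shares thus have another base than the 4.23% over all cells and cannot be set against it.

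Alpha segment use, by the strongest productive TRA of each cell, was spread over 39 TRAV segments, copies collapsed, of the 48 seen in paired cells. It was spread over 40 of 43 TRAJ segments. The most used TRAV were TRAV12-2 (15 cells), TRAV10 (14), TRAV13-1 (11), TRAV3-3 (10) and TRAV6-6 (10), which came to 26.1% of alpha-only and 24.3% of paired cells. The most used TRAJ were TRAJ22 (18), TRAJ30 (17), TRAJ31 (14), TRAJ26 (13) and TRAJ21 (12, as many as TRAJ34 and TRAJ42), the first 5 of them at 32.2% against 26.5%. The segments were picked for their alpha-only counts, which tends to raise that side, so these shares are a description and were not tested. Of the 14 TRAV10 cells, 9 were in 5xFADTg parenchyma 2, the library of the TRAV10D-TRAJ42 and TRAV10-TRAJ31 alphas above; V copies named with D or N are near-identical and were pooled.

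Only the strongest productive TRA of a cell was counted, so second alphas are left out. Each distinct chain (V, J and CDR3 bases) counted once per library and class, which gave 185 alpha-only and 2925 paired chains. Of 87 segments, 0% passed the test in either direction (edgeR quasi-likelihood test with library as block, smallest adjusted p 0.558, 4 segments at an unadjusted p under 0.05). DESeq2 also called 0, with 13 at that p. The 3 segments with the smallest p on the higher side were TRAV11 (7 chains against 38; log2 fold change 1.58, SE 0.67, adjusted p = 0.558), TRAJ18 (9 against 70; 1.05, SE 0.56, adjusted p = 0.694) and TRAJ30 (14 against 118; 0.87, SE 0.47, adjusted p = 0.694). On the lower side TRAJ47 (0 of 185 chains against 48), TRAV13-4 (0 against 44) and TRAJ28 (0 against 37) had no alpha-only chain among those counted. That allows a share of up to 1.62% for each, where paired chains had 1.64%, 1.5% and 1.26%. Counting cells in place of distinct chains turned the direction of TRAV11 to -0.0402 and of TRAJ18 to -0.0903 on the log2 scale; TRAV11 was in 8 alpha-only cells (7 chains counted per library) and in 202 paired cells (38). TMM factors and DESeq2 moved the median log2 fold change of all segments by -0.82 and -0.72, with TRAV11 at 0.72 and 0.70, TRAJ18 at 0.21 and 0.20, and TRAJ30 at 0.14 and 0.0136. The TRAJ segments 61 to 31, which lie nearest the V segments and are used by early rearrangements, were in 47.0% of alpha-only and 48.2% of paired cells (within libraries -0.128 percentage points, 3 of 6 libraries lower, exact sign-flip permutation test, p = 0.938, adjusted 0.938).

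iNKT-like alphas, TRAV11 (chr14:53519303-53519859) joined to TRAJ18 (chr14:54200777-54200842) with a CDR3 of 15 amino acids, were in 7 of 230 alpha-only cells (3.04%, 1.23 to 6.17) and in 204 of 5207 paired cells (3.92%). NonTg parenchyma had 0 and 1 of these cells, 5xFADTg parenchyma 4 and 1, NonTg meninges 0 and 5xFADTg meninges 1. The share was above that of paired cells in 3 libraries and below it in 3 (mean -0.418 ± 2.94 percentage points, SD, n = 6, exact sign-flip permutation test, p = 0.781, adjusted 0.911). In parenchyma it averaged 4.63% ± 4.33 (SD, n = 2) in 5xFADTg and 1.61% ± 2.28 (SD, n = 2) in NonTg (exact permutation test, p = 0.667, adjusted 0.889), and in meninges 6.25% ± 8.84 (SD, n = 2) against 3.12% ± 3.32 (SD, n = 4) in parenchyma (exact permutation test, p = 0.667, adjusted 0.667). All 7 shared their alpha CDR3 with a paired cell of the library, and the 3 CDR3 variants printed above accounted for 3, 3 and 1 of them. Since iNKT cells of different origin carry the same alpha, this match does not tie a cell to a clone.

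The TRAV1 segment (chr14:52427928-52428876), which MAIT cells use, was in the strongest TRA of none of the 230 alpha-only cells and of 34 paired cells. Counted on any productive TRA, TRAV1-TRAJ33 was in 0 of 230 alpha-only cells, which allows a share of up to 1.30%. It was in 26 of 5207 paired cells (0.499%), 25 of them with the 12 amino acid CDR3 of MAIT cells. The paired share lay between 0.498% and 0.573% in 5 libraries and was 0 in 5xFADTg meninges. The alpha-only share was the lower one in those 5 libraries (mean -0.451 ± 0.223 percentage points, SD, n = 6, exact sign-flip permutation test, p = 0.0625, adjusted 0.438), but a share of this size was not detectable with the 8 to 64 alpha-only cells of a library.

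A second productive alpha was listed in 28 of 230 alpha-only cells (12.2%, 8.24 to 17.1) and in 464 paired cells (8.91%). The share was 17.5% and 12.9% in NonTg parenchyma, 9.62% and 9.38% in 5xFADTg parenchyma, 16.7% in NonTg meninges and 0 of 8 cells in 5xFADTg meninges, which allows up to 37.5%. It was above that of paired cells in 5 of 6 libraries and below it in 5xFADTg meninges, by 1.87 ± 5.55 percentage points on average (SD, n = 6, exact sign-flip permutation test, p = 0.406, adjusted 0.569). Without 5xFADTg meninges the difference was 3.81 points, without NonTg parenchyma 1 it was 0.521, and against paired cells with 1 or more TRB it was 0.165. The alpha CDR3 was 13.4 ± 0.277 amino acids long (mean of library means, SD, n = 6) in alpha-only and 13.6 ± 0.264 (SD, n = 6) in paired cells (exact sign-flip permutation test, p = 0.219, adjusted 0.492).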

How the data were processed

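Receptor libraries of sorted CD45+ cells were made with a 10x Genomics immune profiling kit, per the labels' protocols, and the submitters' processing notes name Cell Ranger 6.0 and build mm10. The deposited contig tables list, per the file headers, segments, CDR3, the productive call and raw counts of reads and UMIs, without normalization. All 19419 listed contigs were called as lying in a cell; further filters: not given in the sources used here.

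The members and lists were chosen with earlier results of these data known. All listed cells were used and no doublet filter was run. The alpha of a cell was its productive TRA with most UMIs, except that a match, an iNKT-like or a TRAV1-TRAJ33 chain counted on any TRA. Shares carry 95% exact binomial (Clopper-Pearson) intervals, and a count of 0 allows 3 counts; both cover counting error only.

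Library means were compared by exact permutation and sign-flip tests (two-sided, adjusted by Benjamini-Hochberg over 4, 4 and 7 measures, threshold 0.05). Segments were compared with edgeR 4.0.16 (limma 3.58.1, R 4.3.3), numbers of chains as library size and at least 10 chains per segment; DESeq2 1.42.0 was an alternative. The SE was derived from the fold change and its F statistic. The exact tests and the segment fit were tested on simulated data. Python 3.11.15, pandas 2.3.3, numpy and scipy were used. Named segments were those past the threshold, the 5 TRAV and 5 TRAJ with most cells and the 3 of smallest p either way. Named clones were alphas in 3 or more alpha-only cells.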

Additional observations from a re-analysis of the deposited data

Results flagged for a closer look

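The within-library difference in TRAV1-TRAJ33 share stood apart in 5xFADTg meninges: it was 0 there and between -0.573 and -0.498 percentage points in the other 5 libraries. No paired cell of that library carried the chain. Of 11 groups of libraries examined this way, chance alone marks about 1 in 20.

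Outside the TRA and TRB contigs, 26 contigs joined segments of different chains. None was productive, 13 were in paired cells and 13 in cells with TRB alone, and 0 were in alpha-only cells.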

How the results depend on the processing

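None of the 229 alternative values passed the threshold (smallest adjusted p 0.133 for the exact tests, 0.162 for segments, of which 2 to 15 were at an unadjusted p under 0.05). Of these values 17 turned the direction of the main value. The other 212 kept it or, for the number of segments called, stayed at 0, which has no direction. Asking for a TRA of at least 2 UMIs left all genotype and tissue values unchanged, as no alpha-only cell rested on 1 UMI. Leaving out alpha-only cells with a nonproductive TRB contig turned the genotype difference in TRA UMIs to 15.5. It turned the tissue difference in iNKT-like share to -4.91 points and took that in matched share to -44.6 points. Both tissue values rest on 4 alpha-only cells left in NonTg meninges and 2 in 5xFADTg meninges (exact permutation test, adjusted p = 0.533 for each). Paired cells with 1 or more TRB turned the TRAJ61 to TRAJ31 difference to 0.981, and distinct chains turned the iNKT-like difference within libraries to 2.85 points. Cells in place of chains gave -0.0402 for TRAV11 and -0.0903 for TRAJ18 (log2). The causes were not tested.

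Without 1 library each, the genotype differences ran from -0.835 to 0.0351 points in share, from -6.5 to 0.5 in median UMIs, from -4.48 to 18.8 points in matched share and from -0.0504 to 6.08 points in iNKT-like share. The tissue differences ran from -1.63 to 0.903 points in share, from -27.0 to -10.4 points in matched share and from -3.12 to 9.38 points in iNKT-like share. Within libraries, TRAJ61 to TRAJ31 use ran from -1.02 to 1.19 points and iNKT-like share from -1.08 to 0.415 points. Treating same-numbered parenchyma libraries as pairs (replicate block) could not move the genotype differences. The mean of the 2 pair differences equals the difference of the group means. The genotype differences thus stayed at -0.400 points in share, -3 UMIs, 3.01 points in iNKT-like share and 7.15 points in matched share. These values are among the 212 and say nothing on robustness. Same-numbered libraries share only a number (correlation of their deviations over 91 segments -0.0881).

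Depth limits precision: the meninges libraries held 18 and 8 alpha-only cells.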
